A study of Mus musculus with 8 samples.

Results

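The response of Tpl2-deficient mouse macrophages to LPS was measured on 4 of the series' 8 Affymetrix arrays: 2 arrays of Tpl2-deficient macrophages treated with LPS and 2 of Tpl2-deficient macrophages left unstimulated. The arrays were taken by their titles, and 4 arrays of Tpl2 wild-type macrophages (2 unstimulated, 2 LPS-treated) served for comparison. All groups were bone marrow cells grown for 7 to 10 days in macrophage colony-stimulating factor (M-CSF) at 10 ng/mL, which drives marrow progenitors to become macrophages, and harvested as adherent cells. The LPS was from Escherichia coli at 1 μg/mL. The labels give no treatment time for these arrays, no mouse strain, age or sex, and no design of the Tpl2 allele, and they do not tie the replicates, which are labelled biological, to animals. Each p-value therefore reflects no more than the scatter among these arrays, part of which may be technical. Each of 18193 genes was read by its brightest probe set, as a log2 RMA intensity (a background-corrected, normalized probe set signal), and the change is the mean of the LPS-treated minus the mean of the unstimulated Tpl2-deficient arrays.

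LPS is a cell wall lipid of Gram-negative bacteria that macrophages sense through Toll-like receptor 4 with Cd14 and Ly96. The receptor signals through Myd88 to NF-kB and the MAP kinases, and through Ticam1 to the interferon regulatory factors and interferon beta. Tpl2, encoded by Map3k8, is the kinase that activates MEK and, through it, ERK after this signal. It is held by the NF-kB precursor p105 (Nfkb1) until that is degraded.

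Map3k8 itself read 8.32 and 8.23 in the unstimulated and 9.83 and 10.09 in the LPS-treated Tpl2-deficient arrays, a rise of 1.68 ± 0.11 (log2 ± standard error; adjusted p = 2.74e-07, limma). In wild type it read 9.27 and 9.28 without and 11.01 and 10.91 with LPS, so that the Tpl2-deficient arrays lay below the wild-type arrays of the same treatment and did not overlap them. Its single probe set is not placed relative to the deletion by the labels, so a remaining signal checks only that the groups differ.

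The 2 LPS-treated Tpl2-deficient arrays were less alike than those of any other group. Their median between-array SD was 0.129, against 0.0649 to 0.0662 in the other groups. Replicate 1 lay below replicate 2 for 3225 of the 4693 genes that fell (68.7%) and for 1636 of the 2903 that rose (56.4%). Over all 18193 genes it did so for 8690 (47.8%). The fit assumes 1 spread for all groups, so its errors may be too small for this group. The arrays carry no detection calls. A group mean under its array median (6.48 to 6.53) is therefore read as not shown to be above background, and a fold from or to it as a lower bound; this holds for 1338 of the calls. Of 18 macrophage markers 17 lay above the median in unstimulated and 17 in LPS-treated Tpl2-deficient cells. Of all 18193 genes 6836 lay under it in unstimulated Tpl2-deficient cells. Among the 18 markers 6 rose and 7 fell, with Cebpa the lowest at -5.33. The summed signal of 14 neutrophil markers was 11.67 to 11.68 in unstimulated and 12.65 to 12.68 in LPS-treated Tpl2-deficient arrays (log2). Of the 14, 4 rose and 1 fell, and Gfi1 (5.85) and Lcn2 (5.60) were the 2 that rose at least 2-fold. Group means lay above the median for 4 without and 6 with LPS, and under it in both for 8, among them Elane, Mpo, Prtn3 and Ctsg. The summed signal of 14 stromal markers was 10.84 to 11.37 and 12.10 to 12.39, and that of 11 mast cell and basophil markers 9.52 to 9.60 and 11.47 to 11.66. The 11 dendritic cell markers summed to 10.95 to 11.05 and 10.79 to 10.83, the 11 B cell markers to 10.38 to 10.52 and 10.02 to 10.08, the 12 T and NK cell markers to 9.91 to 9.93 and 9.94 to 10.01, and the 7 erythroid markers to 9.19 and 9.07 to 9.33. Hdc, the histamine-forming enzyme on the mast cell list, went from 6.38 and 6.64 to 11.03 and 11.32, and Pdgfrb, a growth factor receptor on the stromal list, from 5.82 and 4.61 to 10.07 and 10.25, with a change of 1.19 on its next probe set. The part of other cells in the changes below was not tested, and in such bulk RNA fewer cells of a type and less RNA per cell cannot be told apart.

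In Tpl2-deficient macrophages LPS changed 7596 of 18193 genes (41.8%) at an adjusted p under 0.05: 2903 rose (16.0%) and 4693 fell (25.8%). Of these, 437 rose and 351 fell at least 4-fold. The median change over all genes was 0.00. When each array was instead set to its bacterial and phage control probe sets (spike-in centring), whose mean was 0.20 higher in the LPS-treated arrays, that median became -0.20 and falls made up 78% of the calls in place of 61.8%; calls of a lower difference made up 47.7% in place of 33.5%, so small changes of either sign depend on the scaling. In wild type 52.2% of genes passed, 21.3% upward and 30.9% downward. The difference of the genotypes' LPS responses was tested as an interaction, and 1563 genes passed (8.59%), 1040 with a higher (5.72%) and 523 with a lower (2.87%) change in Tpl2-deficient cells. Counts of list members below are to be read against these shares of all genes, and no test of a list as a whole, or of a difference in counts between genotypes, was made. These counts rest on few arrays: 2565 and 2489 differences passed without LPS-treated Tpl2-deficient replicate 1 or 2, and 756 to 940 without any 1 of the other 6 arrays.

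**Figure D1:**
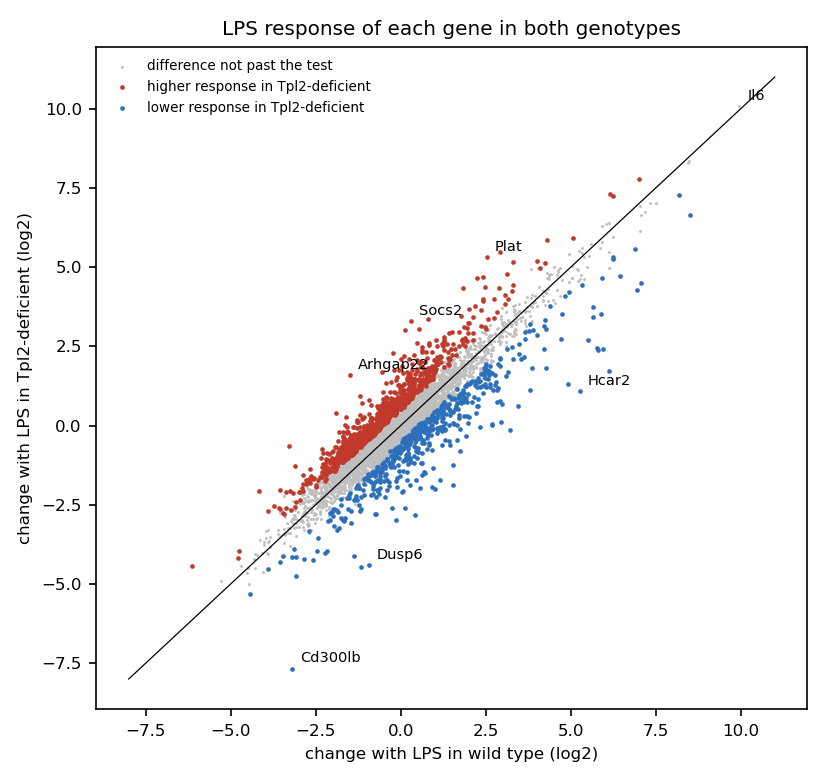
Log2 change with LPS in wild-type macrophages (horizontal axis) and in Tpl2-deficient macrophages (vertical axis), 1 point per gene, from 2 arrays a group; the diagonal marks equal changes, and coloured points are the 1563 genes whose difference passed the test. Il6 lies on the diagonal at the top right, Cd300lb, Dusp6 and Hcar2 lie below it, and Socs2, Plat and Arhgap22 above it.

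Il6, a pro-inflammatory cytokine, read 3.95 and 3.80 in the unstimulated and 13.98 and 13.93 in the LPS-treated Tpl2-deficient arrays, a rise of at least 1086-fold (adjusted p = 3.3e-13). Ptgs2, the inducible cyclooxygenase, went from 4.87 and 4.25 to 12.87 and 12.98. The chemokine Cxcl9 went from 5.28 and 5.55 to 13.75 and 13.64 and Cxcl11 from 6.36 and 6.53 to 14.14 and 14.32. In these genes both LPS-treated arrays lay far above both unstimulated arrays, and their resting signal lay under the array median or next to it. Lack of overlap was a condition for choosing the largest changes and is no support for them. It held for 12137 of all 18193 genes, and only 1 of the 7596 calls had overlapping groups. Other genes of this size were the early activation antigen Cd69 (7.29 ± 0.14), Il12b, the shared p40 subunit of interleukins 12 and 23 (7.25 ± 0.18), the integrin subunit Itgb8 (6.93 ± 0.11), the LIM homeobox factor Lhx2 (7.31 ± 0.15) and the costimulatory receptor Cd40 (6.36 ± 0.13). For Ptgs2, Cxcl9 and Cxcl11 a second probe set gave smaller rises, of 5.49, 4.64 and 6.19.

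Among genes that fell, the largest change was that of Cd300lb, an activating receptor of the CD300 family on myeloid cells. It read 12.78 and 12.81 in unstimulated and 5.47 and 4.78 in LPS-treated Tpl2-deficient arrays, a fall of at least 204-fold. Cebpa, a lineage-determining transcription factor of myeloid cells, went from 12.53 and 12.50 to 7.23 and 7.15, the iron exporter Slc40a1 from 11.74 and 11.86 to 6.91 and 6.67, and Sesn1, a sestrin that restrains mTORC1, from 12.53 and 12.50 to 7.43 and 7.82. The ceramide kinase Cerk fell by 4.66, the basic helix-loop-helix factor Lyl1 by 4.62, the arrestin-domain gene Arrdc3 by 4.52, the lysoplasmalogenase Tmem86a by 4.50 and the costimulatory receptor Cd28 by 4.49 on the log2 scale. In each, both LPS-treated arrays lay below both unstimulated ones, which the choice of the largest falls required.

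**Figure D2:**
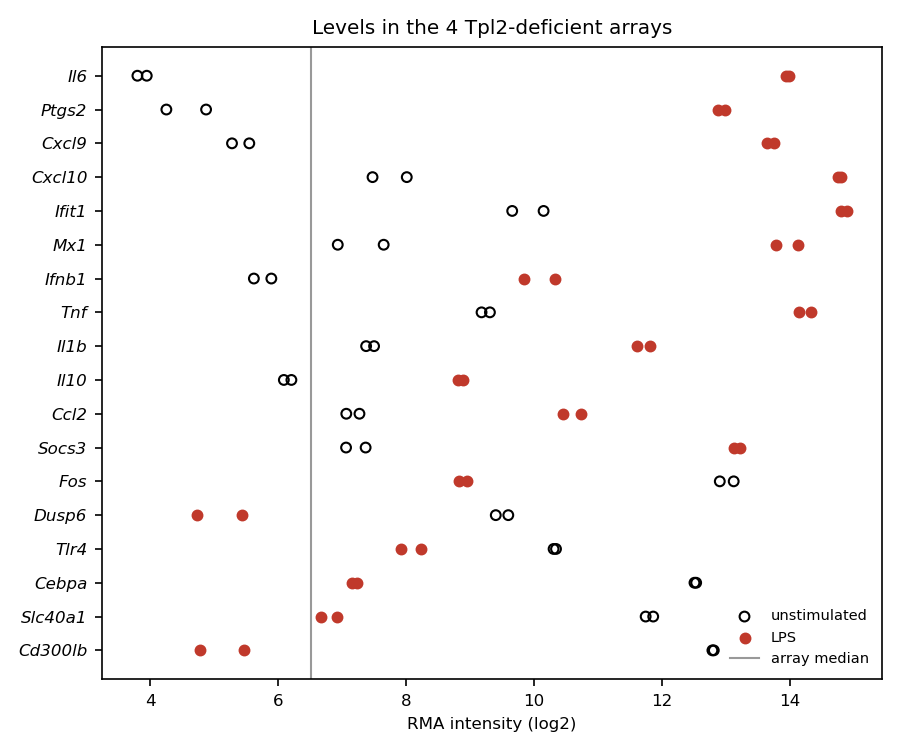
Log2 RMA intensity (horizontal axis) of 18 genes in the 4 Tpl2-deficient arrays; open circles are the 2 unstimulated arrays and filled circles the 2 LPS-treated arrays, and the grey line is the median of the arrays. The circles of a treatment lie close together beside the distance between treatments, and the filled circles of Dusp6 and Cd300lb, at 5.44 and 4.73 for Dusp6 and 5.47 and 4.78 for Cd300lb, are the most spread.

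Sequence upstream of the start sites was read from the RefSeq promoter table (build GRCm38.p6, 250 bases before to 50 after each start), which held 347 of the 437 genes that rose at least 4-fold (451 promoters, since a gene can have several) and 274 of the 351 that fell at least 4-fold (383 promoters). Shares are of promoters. On either strand, the interferon-response type motif GAAANNGAA (N is any base) was found in 15.1% of the promoters of genes that rose, in 4.18% of those that fell, in 7.37% of those of all measured genes and in 8.56% of all promoters in the table. The NF-kB consensus was found in 9.53%, 3.92%, 5.12% and 4.51%, the AP-1 motif TGACTCA in 8.2%, 5.22%, 4.52% and 5.2%, the cyclic AMP response element TGACGTCA in 2.44%, 0.783%, 2.49% and 1.79%, and CCAAT, taken for comparison, in 34.8%, 38.4%, 37.4% and 37.4%. The shares are descriptions of these windows and no test was made. Among genes whose response was at least 2-fold lower in Tpl2-deficient than in wild-type cells, a set taken after its values were seen, TGACTCA was in 9.66% of promoters, the NF-kB consensus in 7.98%, GAAANNGAA in 6.72%, TGACGTCA in 2.94% and CCAAT in 34.9%. Among those at least 2-fold higher the shares were 2.67%, 4.96%, 6.87%, 2.67% and 34%, in the same order.

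The 160 bases before the start of 5 genes are given with matches of the NF-kB, interferon-response and AP-1 motifs in capitals and CCAAT left unmarked, the first 4 because their genes rose in Tpl2-deficient cells and the last because its rise was smaller than in wild type. All 5 hold marked matches and are not typical of these sets. Among promoters of genes that rose, 15.1% held GAAANNGAA and 9.53% the NF-kB consensus. Among those with a lower response, 9.66% held TGACTCA. They lie at chr5:92348890-92349049 (minus strand), chr5:30012954-30013113 (plus), chr12:55492648-55492807 (minus), chr19:34640729-34640888 (plus) and chr2:129309973-129310132 (minus), and each is written on its gene's strand.
Cxcl10, 2 NF-kB matches and 1 of TGACTCA on the reverse strand: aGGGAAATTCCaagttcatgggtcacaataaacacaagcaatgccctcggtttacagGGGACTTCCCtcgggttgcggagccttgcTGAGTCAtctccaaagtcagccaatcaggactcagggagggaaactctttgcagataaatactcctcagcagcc
Il6, 1 NF-kB match: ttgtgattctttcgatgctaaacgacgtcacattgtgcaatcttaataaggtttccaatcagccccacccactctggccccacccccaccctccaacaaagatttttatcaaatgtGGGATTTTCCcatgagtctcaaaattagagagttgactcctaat
Nfkbia, 1 NF-kB match and 1 of GAAANNGAA on the reverse strand: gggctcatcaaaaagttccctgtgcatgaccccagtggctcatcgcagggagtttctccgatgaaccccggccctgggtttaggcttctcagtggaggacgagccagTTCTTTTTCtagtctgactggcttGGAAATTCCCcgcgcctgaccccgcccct
Ifit1, 3 matches of GAAANNGAA on the reverse strand, the first 2 overlapping: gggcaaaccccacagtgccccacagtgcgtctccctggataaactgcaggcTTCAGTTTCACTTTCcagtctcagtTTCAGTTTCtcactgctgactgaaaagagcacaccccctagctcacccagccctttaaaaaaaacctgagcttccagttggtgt
Il1a, 1 match of TGACTCA: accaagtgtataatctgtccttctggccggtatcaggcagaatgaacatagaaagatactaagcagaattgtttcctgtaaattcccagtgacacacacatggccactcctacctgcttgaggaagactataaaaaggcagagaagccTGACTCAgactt

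All 30 measured antiviral genes passed upward (median 3.49; 29 passed with spike-in centring), as did all 9 guanylate-binding and immunity-related GTPases (median 4.42). Mx1, an antiviral dynamin-like GTPase, read 7.65 and 6.93 without and 13.77 and 14.13 with LPS. Ifit1, which binds viral RNA lacking the host cap, read 10.15 and 9.66 without and 14.80 and 14.88 with it. Iigp1, a GTPase that acts on pathogen vacuoles, rose by 6.73 ± 0.13, Gbp6 by 6.40 ± 0.10 and the exonuclease Isg20 by 5.33 ± 0.15. Ifnb1, the interferon beta gene, rose from 5.62 and 5.89 to 10.33 and 9.84 (4.33 ± 0.16), against 1.84 ± 0.16 in wild type, a difference of 2.49 ± 0.22 (adjusted p = 6.5e-05). The antiviral list rose in 30 of 30 cases in wild type, and 3 of its members had a lower response in Tpl2-deficient cells (1 without wild-type unstimulated replicate 2, wild-type LPS replicate 2 or Tpl2-deficient unstimulated replicate 1). Of 23 interferon regulatory factors, STATs, Janus kinases and interferon receptors, 15 rose and 4 fell (2 without Tpl2-deficient LPS or unstimulated replicate 1): Irf7 rose by 3.17 ± 0.17, Irf1 by 3.11 ± 0.11 and the kinase Jak2 by 3.33 ± 0.11. The receptor chain Ifnar1 fell by 0.61 where it rose by 1.46 in wild type (difference -2.06 ± 0.23, adjusted p = 0.000299); its fall did not pass without Tpl2-deficient unstimulated replicate 1 or LPS-treated replicate 1.

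Of 19 NF-kB subunits, inhibitors and kinases 17 rose and 1 fell (median 1.64), the same numbers as in wild type and with spike-in centring. The inhibitor Nfkbie went from 9.04 and 8.76 to 12.23 and 12.47, the ubiquitin-editing enzyme Tnfaip3 from 10.37 and 10.36 to 13.71 and 13.89, and the subunit Rel from 7.73 and 7.59 to 10.67 and 10.94. Nfkbiz, an atypical inhibitor that acts in the nucleus, rose by 3.27 ± 0.13. Nfkbia, the classical IκBα, rose by 0.88 ± 0.10 on its brightest probe set and by 1.46 to 2.59 on others. The adaptor Tnip1 rose less than in wild type (0.99 ± 0.11 against 1.98 ± 0.11, difference -0.99 ± 0.16, adjusted p = 0.00307), and the kinase gene Ikbkb rose more (1.34 ± 0.10 against 0.40 ± 0.10, adjusted p = 0.00207 for the difference). The next Ikbkb probe set changed by 0.01, with a difference of -0.45. Its dimmer probe sets rose by 0.94 to 1.64, with differences of 0.64 to 1.68.

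Of 28 interleukins and colony-stimulating factors 14 rose and 2 fell, and the difference of responses was lower for 7 and higher for 4 (4 lower without wild-type LPS replicate 2). Il1b, a pyrogenic cytokine matured by the inflammasome, read 7.50 and 7.37 without and 11.81 and 11.60 with LPS, a rise of 4.27 ± 0.11 against 6.94 ± 0.11 in wild type (difference -2.66 ± 0.16, adjusted p = 5.32e-06). Il1a rose from 5.41 and 5.40 to 7.73 and 7.93 (2.42 ± 0.13 against 5.95 ± 0.13; adjusted p = 2.48e-06), and the anti-inflammatory Il10 from 6.21 and 6.09 to 8.89 and 8.81 (2.70 ± 0.10 against 5.51 ± 0.10; adjusted p = 2.48e-06). The LPS-treated wild-type arrays read 14.48 and 14.46 for Il1b, 11.53 and 11.39 for Il1a and 11.53 and 11.62 for Il10. Csf1, which encodes M-CSF, rose by 4.45 ± 0.14 against 3.30 ± 0.14 (adjusted p = 0.00532), and by 3.62 and 0.97 on dimmer probe sets. Tnf rose from 9.18 and 9.31 to 14.13 and 14.32, and its difference from wild type was 0.30 ± 0.16 (adjusted p = 0.293). Il1rn, the natural antagonist of interleukin 1 receptor, rose by 4.27 ± 0.12 and Il15 by 4.12 ± 0.10, while Il16 fell by 2.06 and by less on its next probe set (-0.88).

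Of 30 TNF superfamily ligands and receptors 13 rose and 2 fell (8 and 5 with spike-in centring; 4 fell without LPS-treated replicate 1). Tnfsf9, the ligand of 4-1BB, rose by 4.77 ± 0.11 and the death ligand Tnfsf10 by 5.44 ± 0.21, and Tnfsf4, the OX40 ligand, rose by 1.83 ± 0.11 against 3.87 ± 0.11 in wild type (adjusted p = 2.89e-05 for the difference). Interleukin and colony-stimulating factor receptors rose in 8 and fell in 8 of 28 cases, with Il15ra, which presents interleukin 15, up by 4.75 ± 0.12 and Il7r down from 13.60 and 13.50 to 11.76 and 11.77. Il4ra, the shared receptor chain for interleukins 4 and 13, rose by 1.30 in wild type and changed by -0.11 ± 0.10 in Tpl2-deficient cells, where it did not pass (adjusted p = 0.000103 for the difference). Among 8 SOCS genes, which encode feedback inhibitors of cytokine receptors, 5 rose and 2 fell. Socs3 rose from 7.37 and 7.06 to 13.22 and 13.12 and Socs1 from 6.30 and 6.31 to 10.03 and 10.04. Socs2 rose from 6.30 and 5.98 to 9.51 and 9.35, while in wild type it read 6.48 and 6.60 without and 6.64 and 7.04 with LPS (difference 2.99 ± 0.21, adjusted p = 1.38e-05).

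Chemokine ligands rose in 21 and fell in 2 of 34 cases (median 0.80; 1 fell without Tpl2-deficient unstimulated replicate 1 or 2 or LPS-treated replicate 2). Among those that recruit T cells, Cxcl10 went from 8.01 and 7.47 to 14.79 and 14.75, and Ccl5 rose by 4.10 ± 0.22. Among monocyte attractants, Ccl12 went from 4.42 and 4.49 to 11.60 and 11.34, whereas Ccl2 and Ccl7 rose to 10.44 and 10.72 and to 8.97 and 8.74. The LPS-treated wild-type arrays read 12.90 and 12.98 for Ccl2 and 12.51 and 12.58 for Ccl7. The responses of the 2 genes differed by -2.24 ± 0.22 and -3.41 ± 0.16 (adjusted p = 0.00011 and 2.1e-06). The neutrophil attractants Cxcl2 and Cxcl3 rose by 4.61 ± 0.10 and 5.57 ± 0.13. Cxcl1 rose by 0.86 ± 0.13 on its brightest probe set, of the kind that may cross-hybridise, and by 4.82 and 6.77 on 2 others, so the size of its rise is not settled here.

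Of 25 receptors for chemoattractants 6 rose and 6 fell, the falls near the share of all genes (4 and 6 with spike-in centring; 3 rose without unstimulated replicate 1). Fpr2, a formyl peptide receptor, rose from 8.37 and 8.02 to 13.58 and 13.54 and the atypical receptor Ccrl2 from 9.86 and 9.76 to 13.85 and 13.97. Cxcr4, the Cxcl12 receptor, fell from 13.01 and 12.96 to 8.53 and 8.55, less far than in wild type (-6.13 ± 0.10; difference 1.68 ± 0.13, adjusted p = 3.28e-05). Ccr1 fell from 8.33 and 8.04 to 6.52 and 6.39 while in wild type it went from 8.84 and 8.61 to 10.04 and 9.72 (difference -2.88 ± 0.20, adjusted p = 1.28e-05). The fractalkine receptor Cx3cr1 fell by 1.89. Ccr2, the Ccl2 receptor, fell by 0.42 on its brightest probe set, a call lost without Tpl2-deficient unstimulated replicate 1 or 2 or LPS-treated replicate 2. The next Ccr2 probe set, nearly as bright, changed by -1.82 and the others by -0.98 and -0.68.

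Of 18 MAP kinase phosphatases and Sprouty-family inhibitors 6 rose and 6 fell, and the response was lower than in wild type for 7 and higher for 0. Dusp6, the cytoplasmic ERK phosphatase, went from 9.40 and 9.60 to 5.44 and 4.73, a fall of at least 21.3-fold against 1.92-fold in wild type (difference -3.47 ± 0.28, adjusted p = 3.11e-05). Dusp4 fell from 8.98 and 9.25 to 6.17 and 6.84, with a change of 0.11 ± 0.18 in wild type that did not pass (adjusted p = 8.57e-05 for the difference). Spry2 and Spred2, inhibitors of Ras to ERK signalling, fell by 1.57 and 1.15 where they rose by 0.61 and 0.31 in wild type (adjusted p = 4.62e-05 and 0.000157), each on its brightest probe set. The second Spry2 probe set changed by 0.13, with a difference of -0.07, and the second Spred2 probe set by 0.17, with a difference of 0.02; the other 3 Spred2 probe sets changed by -0.32 to -0.13. Dusp2, a nuclear phosphatase of ERK and p38, rose from 8.53 and 8.39 to 13.17 and 13.18 in the same arrays, and Dusp16, a JNK phosphatase, rose by 2.96 ± 0.12. Dusp1 rose by 0.85 ± 0.11 against 2.26 ± 0.11 in wild type (adjusted p = 0.000329 for the difference).

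Of 16 AP-1 subunits 7 rose and 5 fell, and the response was lower than in wild type for 5 and higher for 0. The lower count was 3 without any 1 of the 6 arrays other than the LPS-treated Tpl2-deficient ones, and 1 was higher without LPS-treated Tpl2-deficient replicate 2. Fos, the partner of Jun in AP-1, went from 13.12 and 12.90 to 8.94 and 8.82, a fall of 4.12 against 1.38 in wild type on the log2 scale (difference -2.74 ± 0.16, adjusted p = 4.97e-06). Egr1, a zinc finger factor induced by ERK, fell from 9.16 and 9.01 to 7.15 and 7.06 while it rose by 0.56 in wild type (adjusted p = 6.49e-06), and Ier2 fell by 1.51 while it rose by 0.72 (adjusted p = 6.62e-06). Fosl2 fell by 1.94 on its brightest probe set and changed by -0.02 on another, and Jun and Junb changed by -1.74 ± 0.11 and 1.77 ± 0.11. Batf2 and Batf, AP-1 factors induced by interferon or LPS, rose by 4.78 ± 0.11 and 3.22 ± 0.10. Of 25 immediate-early genes 8 rose and 11 fell, and 10 had a lower and 5 a higher response than in wild type. Phlda1 rose by 0.76 ± 0.13 against 2.92 ± 0.13 (adjusted p = 4.73e-05), whereas Gadd45b, a stress sensor, rose from 9.57 and 9.45 to 13.55 and 13.45. Zfp36, whose protein destabilises mRNAs of Tnf and other cytokines, rose by 1.71 in wild type and changed by 0.23 ± 0.10 in Tpl2-deficient cells (adjusted p = 7.4e-05 for the difference). Its relative Zfp36l2 fell from 13.60 and 13.57 to 8.48 and 9.20; its weaker probe sets changed by -0.32 and -0.19. Of 15 mRNA decay genes 4 rose and 5 fell.

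**Figure D3:**
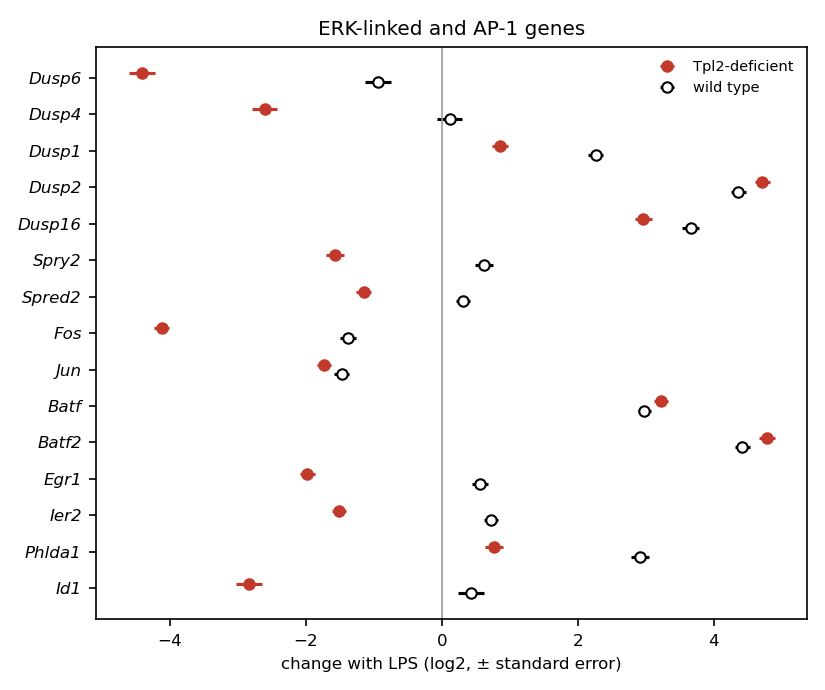
Log2 change with LPS (horizontal axis, mean difference of 2 against 2 arrays) of 15 genes linked to ERK, AP-1 and feedback, in Tpl2-deficient (filled) and wild-type macrophages (open); bars are standard errors of the limma fit. Dusp6, Dusp4, Spry2, Fos, Egr1, Ier2 and Id1 lie to the left of their wild-type values in Tpl2-deficient cells, while Dusp2, Batf and Batf2 lie at or to the right of them.

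Of 26 genes of LPS sensing 13 rose and 7 fell in Tpl2-deficient cells (10 and 7 with spike-in centring; 4 fell without unstimulated replicate 1). Tlr4, the LPS receptor, fell from 10.34 and 10.30 to 7.93 and 8.23, a fall of 2.25 against 0.71 in wild type (difference -1.53 ± 0.16, adjusted p = 0.000225). Tlr13, which senses bacterial ribosomal RNA, fell by 3.01 against 1.67 (adjusted p = 0.000606), while Tlr3, the double-stranded RNA receptor, rose by 2.90 ± 0.12 and Tlr1 by 2.03 ± 0.11. Irak3, an inhibitor of Myd88 signalling, rose by 1.03 ± 0.15 against 2.43 ± 0.15 (adjusted p = 0.00169). Among 25 genes of the Tpl2 complex and the MAP kinases 9 rose and 7 fell. Mapkapk2, the p38 effector kinase, rose from 10.54 and 10.58 to 12.26 and 12.49, and Mapk14, which encodes p38α, fell from 11.71 and 11.64 to 9.49 and 9.79 on its brightest probe set, where it fell by 0.66 in wild type (adjusted p = 0.000435); the 5 weaker Mapk14 probe sets changed by -0.84 to 0.22.

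Of 26 measured transcription factors of the macrophage lineage 10 rose and 11 fell, and 12 had a lower and 5 a higher response than in wild type. With spike-in centring 9 had a lower and 3 a higher response. The lower count was also smaller without any 1 array other than the LPS-treated Tpl2-deficient ones. The higher count was 3 without wild-type unstimulated replicate 2, wild-type LPS replicate 1 or 2, or Tpl2-deficient unstimulated replicate 1 or 2. Gfi1, a transcriptional repressor, rose from 4.92 and 4.50 to 10.45 and 10.65 and Zeb1, another repressor, from 6.58 and 6.24 to 10.67 and 10.67; the next Zeb1 probe set rose by 3.54. Id1, an inhibitor of helix-loop-helix factors, fell from 9.36 and 9.36 to 6.91 and 6.12, with a change of 0.43 ± 0.19 in wild type (difference -3.27 ± 0.28, adjusted p = 4.36e-05). Maf fell by 1.45 where it rose by 0.69 in wild type (adjusted p = 1.17e-05). Cebpd, an acute-phase regulator, read 10.77 and 10.60 without and 10.50 and 10.75 with LPS, and the arrays overlapped (-0.05 ± 0.12), whereas in wild type it rose by 2.34 (difference -2.40 ± 0.16, adjusted p = 1.02e-05). Spi1, the PU.1 gene, rose by 0.80 ± 0.10. Nuclear receptors fell in 12 and rose in 3 of 20 cases (median -0.51). Pparg, a lipid-sensing receptor, fell from 9.17 and 9.11 to 6.73 and 6.75. Rxra, the shared dimer partner of these receptors, fell by 2.96, and changed by -0.34 on its next probe set.

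Surface receptors of the CD300 and TREM families fell in 8 and rose in 0 of 13 cases (2 rose without LPS-treated replicate 2), with Cd300a down from 12.68 and 12.59 to 9.74 and 9.71. The fall of Cd300lb was larger than in wild type, where it read 12.79 and 12.73 without and 9.57 and 9.52 with LPS (difference -4.46 ± 0.25, adjusted p = 3.34e-06). Of 24 scavenger and efferocytosis genes 13 fell and 5 rose (median -0.42). The scavenger receptor Stab1 fell by 1.90 and the bridging molecule Gas6 by 1.60 (a dimmer Gas6 probe set changed by -0.26), while Marco, a receptor for bacteria and particles, rose by 0.69 ± 0.15 against 2.98 ± 0.15 in wild type (adjusted p = 8.57e-05). Olr1, the receptor for oxidised LDL, reached 5.95 and 5.77 with LPS, under the array median, against 9.55 and 9.38 in wild type (adjusted p = 2.59e-06 for the difference of responses). C-type lectin and Fc gamma receptors rose in 8 and fell in 6 of 20. The mincle gene Clec4e rose from 11.40 and 10.99 to 14.37 and 14.54, and Fcgr3 fell by 0.78 without passing the test in wild type (difference -0.77 ± 0.14, adjusted p = 0.00719). Of 21 costimulatory and activation molecules 18 rose and 3 fell (median 2.21), Icosl by 3.76 ± 0.17 against 2.20 ± 0.17 in wild type (adjusted p = 0.00262).

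Receptors for metabolites and lipids rose in 8 and fell in 8 of 25 cases (8 and 12 with spike-in centring). Hcar2, the niacin and β-hydroxybutyrate receptor, rose from 6.64 and 6.63 to 7.63 and 7.83, against 11.80 and 11.82 in LPS-treated wild-type arrays (difference -4.16 ± 0.15, adjusted p = 3.23e-07). Gpr84, a receptor for medium-chain fatty acids, rose by 2.43 ± 0.10 against 4.22 ± 0.10 (adjusted p = 3.87e-05), and the cannabinoid receptor Cnr2 fell from 9.27 and 9.26 to 4.63 and 5.01. Of 22 genes of prostaglandin and leukotriene synthesis and sensing 7 rose and 7 fell. Besides Ptgs2, the prostaglandin E synthase Ptges rose from 7.47 and 7.34 to 11.56 and 11.43. The receptor Ptger2 fell from 9.78 and 9.51 to 5.12 and 5.26, a fall of 4.46 against 1.17 in wild type (difference -3.29 ± 0.17, adjusted p = 2.48e-06), while Ptger4 rose by 1.06 ± 0.11 against -0.33 ± 0.11 (adjusted p = 0.000225).

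Genes of matrix breakdown and migration rose in 10 and fell in 10 of 27 cases. Plat, the tissue plasminogen activator, went from 5.88 and 6.03 to 11.18 and 11.38, a rise of 5.32 ± 0.16 against 2.53 ± 0.16 in wild type (difference 2.80 ± 0.23, adjusted p = 3.87e-05). Other members of the same system had lower responses than in wild type: the urokinase receptor Plaur fell by 0.81 where it rose by 1.75 (adjusted p = 5.5e-06), and the inhibitor Serpinb2 rose by 2.45 ± 0.14 against 5.78 ± 0.14 (adjusted p = 5.32e-06). The collagenase Mmp13 rose by 4.67 ± 0.17. Of 23 integrins and adhesion genes 8 rose and 10 fell, with Itga5, the fibronectin receptor subunit, up by 1.76 ± 0.14 and Itga6 down by 2.06. Arhgap22, a Rac-directed GTPase-activating protein gene, rose from 10.43 and 10.43 to 11.83 and 12.21 and fell from 10.46 and 10.52 to 8.88 and 9.11 in wild type (difference 3.09 ± 0.19, adjusted p = 5.36e-06). The ephrin Efna2, the small GTPases Gem and Rras2 and the Cdc42 effector Cdc42ep3 also had higher responses than in wild type, by 2.87 ± 0.21, 2.55 ± 0.25, 2.41 ± 0.15 and 2.64 ± 0.17; of these Cdc42ep3 fell in both genotypes, by 0.63 here, and a second Efna2 probe set had a difference of 0.76.

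Acod1, which makes itaconate, rose from 9.92 and 9.52 to 14.72 and 14.78 (5.03 ± 0.13, against 5.03 ± 0.13 in wild type), and Gch1, which starts synthesis of the nitric oxide synthase cofactor, rose by 3.63 ± 0.11. Nos2, the inducible nitric oxide synthase, rose by 2.84 ± 0.24. Of 18 genes of nitric oxide, arginine and itaconate metabolism 9 rose and 3 fell. Glycolysis and HIF-1 target genes rose in 12 and fell in 11 of 29 cases, with the transporter Slc2a6 up from 9.70 and 9.44 to 13.32 and 13.62 and Pfkfb3, an activator of phosphofructokinase, up by 3.20 ± 0.11. Eno2, a neuronal-type enolase, rose by 0.92 ± 0.14 where it fell by 1.19 in wild type (adjusted p = 7.52e-05). Of 20 genes of the tricarboxylic acid cycle 10 fell and 1 rose (15 and 0 with spike-in centring). Idh1, the cytosolic isocitrate dehydrogenase, fell from 13.73 and 13.78 to 12.31 and 12.34.

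Of 39 respiratory chain genes 9 fell and 2 rose (median -0.09), and the share that fell is near that of all genes. The falls numbered 2 without unstimulated replicate 1 and 16 with spike-in centring, and 5 rose without LPS-treated replicate 2. The response was higher than in wild type for 7 members and lower for 0, but higher for 0 without any 1 of the 6 arrays other than the LPS-treated Tpl2-deficient ones, for 22 without LPS-treated Tpl2-deficient replicate 2 and for 1 with spike-in centring. Ndufs8, a subunit of complex I, fell by 0.68 and Sdhb, a subunit of complex II, from 12.77 and 12.77 to 12.33 and 12.14; Cycs, which encodes cytochrome c, rose by 1.17 ± 0.15. Ribosomal protein genes fell in 5 and rose in 1 of 23 cases, and in 15 and 0 with spike-in centring; 14 fell without LPS-treated replicate 1, 3 without LPS-treated replicate 2 and 2 without unstimulated replicate 1 or 2. Of 11 reference genes 6 fell and 3 rose, with changes from -1.42 to 0.39; 1 rose without unstimulated replicate 1 or LPS-treated replicate 2, and 0 without unstimulated replicate 2.

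**Figure D4:**
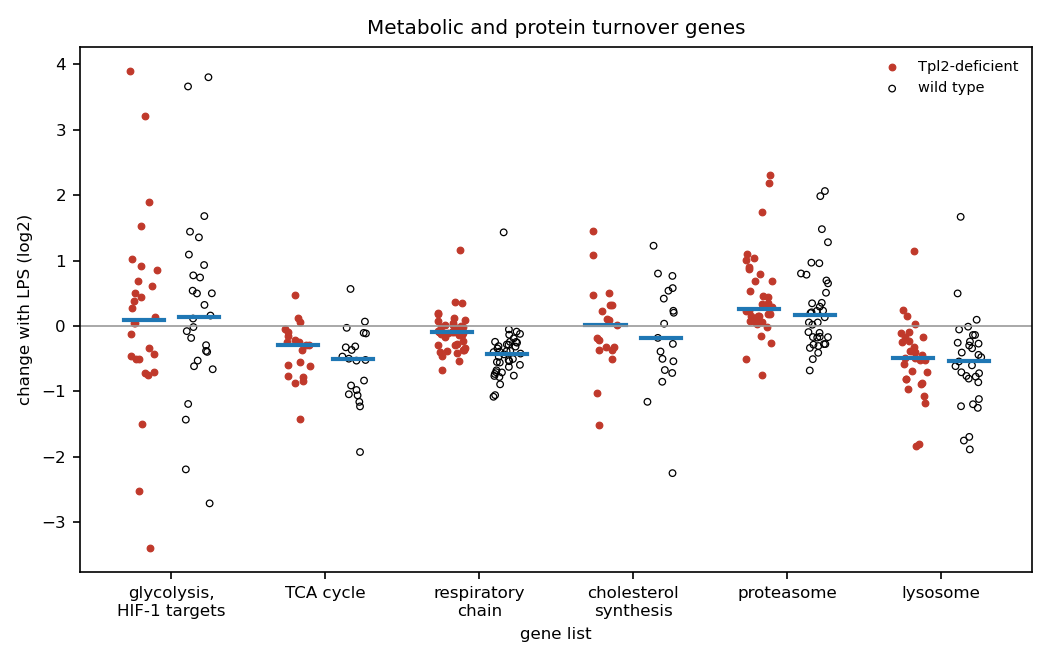
Log2 change with LPS (vertical axis) of the measured members of 6 gene lists, 1 point per gene, in Tpl2-deficient (filled) and wild-type macrophages (open), with a bar at each median. The respiratory chain has a median of -0.42 in wild type and -0.09 in Tpl2-deficient cells, and the lysosomal list has medians of -0.54 and -0.48.

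LXR targets and lipid genes fell in 8 of 15 cases and rose in 1 (12 and 0 with spike-in centring). The stearoyl-CoA desaturase Scd2 fell from 8.24 and 8.34 to 4.76 and 5.67, and the sterol exporter Abca1 fell by 0.85 with a change of -0.05 ± 0.11 in wild type (adjusted p = 0.00795 for the difference). Mylip, an LXR target that degrades the LDL receptor, read 12.61 and 12.50 without and 12.96 and 12.96 with LPS in Tpl2-deficient cells and fell from 12.33 and 12.48 to 10.44 and 10.57 in wild type (difference 2.30 ± 0.15, adjusted p = 6.62e-06). Cholesterol synthesis genes rose in 6 and fell in 5 of 19 cases, and in 2 and 9 with spike-in centring, and 2 rose without unstimulated replicate 1 or 2 (3 fell without replicate 2). Of 17 iron genes 9 fell and 3 rose, the ferroxidase Cp by 4.67 ± 0.16. Hmox1, the haem-degrading enzyme, fell from 9.98 and 10.28 to 8.21 and 8.07 where it rose from 9.97 and 10.51 to 11.33 and 11.19 in wild type (difference -3.01 ± 0.24, adjusted p = 2.89e-05). NRF2 targets, to which Hmox1 also belongs, fell in 12 and rose in 3 of 20 cases, and the cystine transporter Slc7a11 rose by 2.87 ± 0.11 against 4.02 ± 0.11 (adjusted p = 0.000999). Amino acid transporters rose in 9 and fell in 5 of 22 (6 and 8 with spike-in centring), with the arginine transporter Slc7a2 up by 3.05 ± 0.12 and Slc43a2 down by 3.25. tRNA synthetases and ATF4 targets rose in 8 and fell in 9 of 24, with Wars, the tryptophanyl-tRNA synthetase gene, up by 1.83 ± 0.13.

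Replication genes fell in 18 and rose in 5 of 34 cases (median -0.38), and mitotic genes and cyclins in 17 and 7 of 35 (median -0.42). With spike-in centring the counts were 23 and 2 for replication and 23 and 7 for mitotic genes and cyclins. Fewer of these mitotic and cyclin genes fell without LPS-treated replicate 1 or without unstimulated replicate 2. The helicase subunit Mcm7 fell from 9.74 and 9.85 to 7.15 and 7.47, and its dimmer probe sets changed by -2.03 to -0.87. E2f8, an E2F repressor, rose from 7.52 and 7.48 to 10.14 and 10.08 against 0.47 ± 0.12 in wild type (difference 2.14 ± 0.17, adjusted p = 3.11e-05). Cyclin D1 (Ccnd1), an ERK-responsive cyclin, fell by 1.44 with a change of -0.05 ± 0.13 in wild type (adjusted p = 0.00082), and cyclin D2 (Ccnd2) rose by 3.51 ± 0.25 against 5.90 ± 0.25 (adjusted p = 0.00205). Of 23 sestrin, FoxO and growth-arrest genes 12 fell and 5 rose. Foxo3 fell from 10.48 and 10.34 to 7.32 and 7.49 and Cdkn1a, the p21 cell cycle inhibitor, rose from 11.08 and 11.06 to 14.40 and 14.49. Of 20 BCL2-family and survival genes 5 rose and 3 fell (5 fell without LPS-treated replicate 2 and 6 with spike-in centring). The caspase-8 inhibitor Cflar rose from 10.00 and 9.89 to 12.87 and 13.25. Bcl2l1, the anti-apoptotic Bcl-xL gene, fell by 1.13 on its brightest probe set, with a change of 0.07 ± 0.11 in wild type (adjusted p = 0.000924 for the difference). Its dimmer probe sets changed by -0.49 to -0.11, with differences of -0.76 to -0.15. Of 14 inflammasome and cell death genes 11 rose and 2 fell (median 1.91), the necroptosis effector Mlkl by 3.29 ± 0.11 and Casp4, a sensor of cytosolic LPS, by 3.13 ± 0.10.

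Proteasome subunits rose in 17 and fell in 2 of 36 cases (11 and 4 with spike-in centring), led by the interferon-inducible catalytic subunits Psmb9, from 10.77 and 10.59 to 13.10 and 12.88, Psmb10 (2.19 ± 0.10) and Psmb8 (1.74 ± 0.10). MHC class I presentation genes rose in 8 and fell in 0 of 13, with the class I regulator Nlrc5 up by 3.36 ± 0.15. MHC class II genes rose in 4 and fell in 0 of 10. Ciita, their master regulator, rose from 8.05 and 7.80 to 9.04 and 9.49 where it fell by 0.43 in wild type (difference 1.77 ± 0.22, adjusted p = 0.000584). Lysosomal cathepsins and vacuolar ATPase genes fell in 21 and rose in 1 of 31 cases, the cholesterol transporter Npc1 by 1.80. Genes of the unfolded protein response fell in 15 and rose in 3 of 22, with the stress sensor kinase gene Eif2ak3 down from 10.19 and 10.22 to 7.49 and 8.08. Complement and acute-phase genes rose in 12 and fell in 2 of 26: Lcn2, which binds bacterial siderophores, rose from 5.06 and 4.79 to 10.82 and 10.22, complement factor B (Cfb) by 4.85 ± 0.14 and Saa3 by 4.63 ± 0.19. Of 20 genes of alternative activation 7 rose and 5 fell, with the chemokine Ccl22 up by 2.72 ± 0.12.

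Set against wild type, the response without Tpl2 kept its direction for most genes that passed in both genotypes. Besides these, 3084 genes passed only in wild type and 1181 only in Tpl2-deficient cells. Of the 6415 genes that passed in both genotypes 6294 moved the same way and 121 opposite ways, 65 of them up and 56 down in Tpl2-deficient cells. The difference passed for all 121, but opposite calls add up in it within the same fit, so that result adds no support. Of the 1563 genes with a called difference, 858 had passed in the same direction in both genotypes, 348 only in wild type and 236 only in Tpl2-deficient cells. Besides genes named above, the zinc transporter Slc39a14 rose by 3.20 in wild type and read 8.06 and 7.93 without and 7.68 and 8.01 with LPS in Tpl2-deficient arrays, which overlap (difference -3.35 ± 0.18, adjusted p = 2.59e-06). The adhesion protein gene Flrt2 fell by 1.25 where it rose by 1.55 in wild type, and the phosphatase gene Ptpn12 fell by 1.33 where it rose by 0.96 (adjusted p = 5.32e-06 and 1.35e-05 for the differences).

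**Figure D5:**
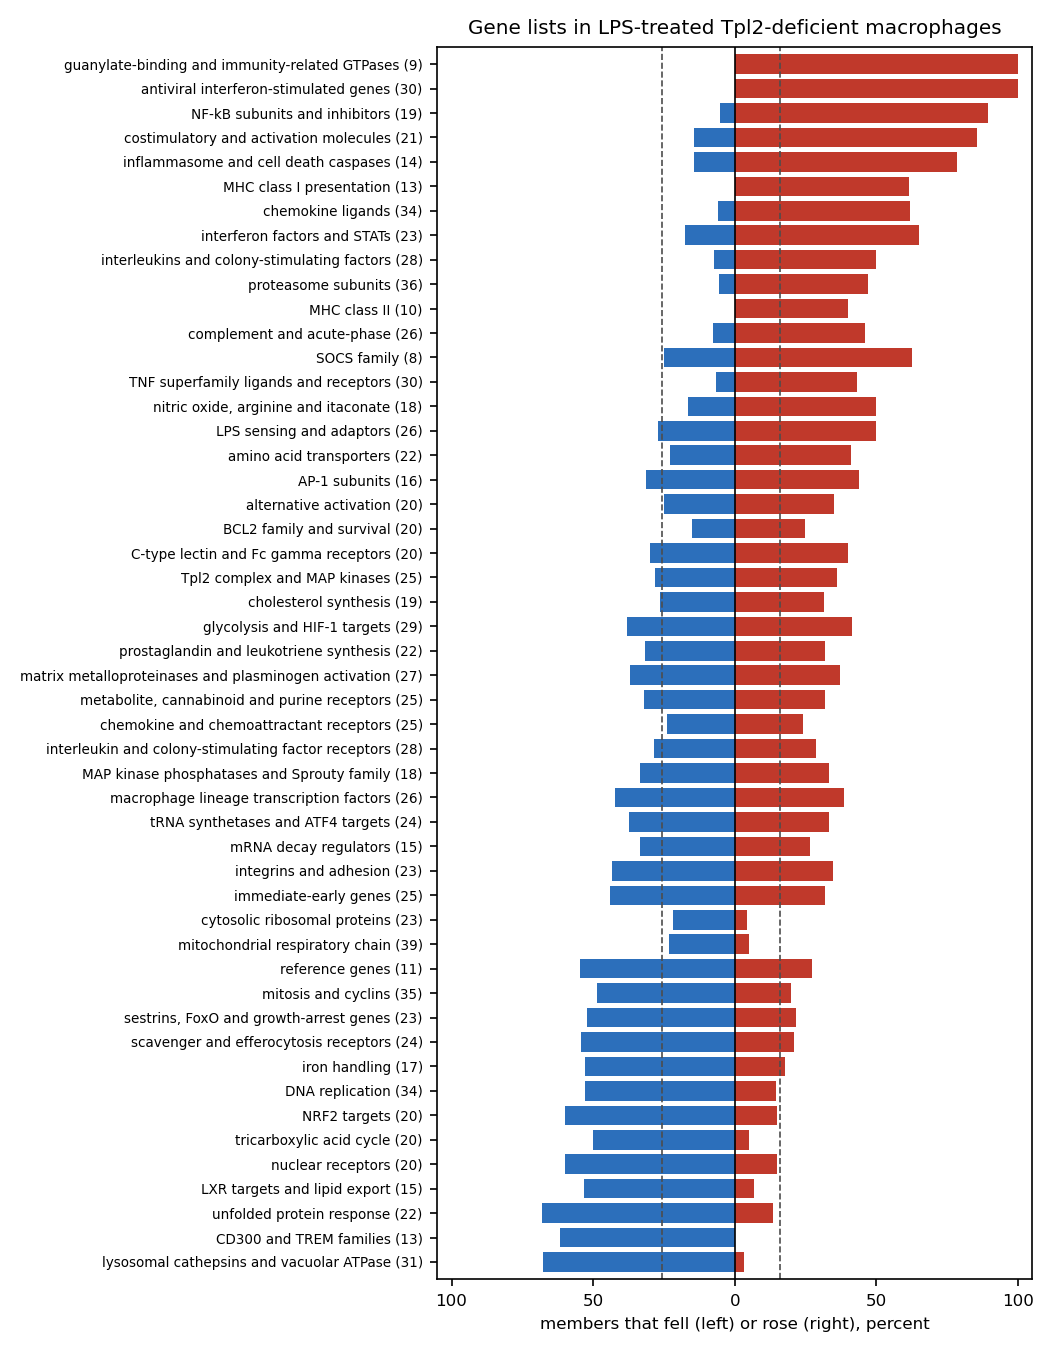
Share of the measured members of each gene list (horizontal axis, percent, bars from 0) that rose (right) or fell (left) with LPS in Tpl2-deficient macrophages at an adjusted p under 0.05, with the number of measured members beside the list's name; dashed lines mark the 16.0% and 25.8% of all genes that rose and fell. The interferon-stimulated lists reach the full width on the right, and lysosomal, unfolded protein response and CD300 and TREM genes reach furthest to the left.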

How the data were processed

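RNA of 8 samples was measured on Affymetrix mouse arrays. Per the labels and the submitters' processing notes, which name GCOS and RMA without versions, the deposited values are log2 RMA intensities; detection calls, genome build and scan batches are not given in the sources used here. Of 45101 probe sets, 64 controls were set aside and 34945 with exactly 1 symbol in the platform annotation (932 had several, 9160 none; 34741 matched RefSeq, 0 symbols changed) gave 18193 genes, each by its brightest probe set. limma 3.58.1 in R 4.3.3 fitted 4 group means over all 8 arrays (4 residual degrees of freedom), with the LPS change in each genotype and their difference as contrasts and Benjamini-Hochberg adjustment over all genes at 0.05. Figures used matplotlib 3.10.9 in Python 3.11.15. The tests were checked on simulated data with the same spread in all groups. That check does not cover the wider spread of the LPS-treated Tpl2-deficient arrays.

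The members and the 58 lists were chosen with earlier results of these data known. Named genes were the 15 largest non-overlapping rises and falls, the 10 largest differences each way, up to 4 per list by change and 2 by difference, and a set always given; only some are described, and clones and predicted genes were left out. Replicate numbers were not treated as pairs: deviations of same-numbered arrays correlated between -0.12 and 0.1. The NF-kB consensus is the usual degenerate site of that factor, searched on both strands. The alternatives were scaling, probe set choice, variance model, replicate block, a 2-fold rule and leaving out each array. Arrays carry no read depth, and their number limits the precision.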

Additional observations from a re-analysis of the deposited data

Results flagged for a closer look

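The genes below were picked out because their LPS responses differed between Tpl2-deficient and wild-type macrophages in limma's interaction test (adjusted p under 0.05, 2 arrays a group). Each value is the log2 change in Tpl2-deficient minus that in wild-type cells. Responses lower by 2 or more on the log2 scale were those of Cd300lb -4.46, Hcar2 -4.16, Olr1 -3.59, Il1a -3.53, Dusp6 -3.47, Ccl7 -3.41, Slc39a14 -3.35, Serpinb2 -3.33, Ptger2 -3.29, Id1 -3.27, Hmox1 -3.01, Ccr1 -2.88, Il10 -2.82, Flrt2 -2.81, Fos -2.74, Dusp4 -2.72, Il1b -2.66, Plaur -2.55, Egr1 -2.54, Cebpd -2.40, Ccnd2 -2.39, Ptpn12 -2.29, Marco -2.29, Ccl2 -2.24, Ier2 -2.24, Spry2 -2.19, Phlda1 -2.16, Maf -2.14, Ifnar1 -2.06 and Tnfsf4 -2.04. Responses lower by 1 to 2 were those of Fosl2 -1.83, Gpr84 -1.79, Zfp36l2 -1.68, Tlr4 -1.53, Zfp36 -1.48, Spred2 -1.46, Il4ra -1.42, Dusp1 -1.41, Irak3 -1.41, Ccnd1 -1.39, Mapk14 -1.37, Tlr13 -1.34, Cxcl3 -1.33, Mmp13 -1.25, Bcl2l1 -1.20 and Slc7a11 -1.15. Responses lower by less than 1 were those of Tnip1 -0.99, Cd69 -0.91, Cebpa -0.90, Abca1 -0.79, Fcgr3 -0.77, Ccr2 -0.71, Dusp16 -0.70, Arrdc3 -0.62 and Pfkfb3 -0.60. Responses higher in Tpl2-deficient cells were those of Arhgap22 3.09, Socs2 2.99, Efna2 2.87, Plat 2.80, Cdc42ep3 2.64, Gem 2.55, Ifnb1 2.49, Rras2 2.41, Mylip 2.30, E2f8 2.14, Eno2 2.11, Ciita 1.77, Cxcr4 1.68, Icosl 1.56, Gfi1 1.54, Ptger4 1.39, Lhx2 1.16, Csf1 1.15, Il12b 1.01, Zeb1 0.99, Ikbkb 0.94, Gadd45b 0.83, Cxcl11 0.78, Irf1 0.64 and Idh1 0.50. Without at least 1 of the 8 arrays the difference no longer passed for Arrdc3, Ccr2, Cd69, Cxcl11, Dusp16, Idh1, Il12b, Irf1 and Pfkfb3. For Cxcl11 a dimmer probe set gave a difference of 4.10, so its size is not settled here.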

How the results depend on the processing

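Under the 2-fold rule 2631 genes changed with LPS in Tpl2-deficient cells in place of 7596 (1081 rose, 1550 fell), and 461 differences passed in place of 1563 (232 higher, 229 lower). With spike-in centring 1795 genes rose in place of 2903, and 1022 differences passed, 535 of them higher. Repeated quantile normalization put 43.7% of called differences on the lower side in place of 33.5%, and spike-in centring 47.7%. Leaving out 1 array gave 6011 to 8400 changed genes (2211 to 3502 rose, 3800 to 4898 fell) and 756 to 2565 differences (406 to 1691 higher, 314 to 921 lower). Each of the 8 arrays moved the count of differences by over 1.5 times: without wild-type unstimulated replicates 1 and 2 it was 855 and 772, without Tpl2-deficient unstimulated replicates 852 and 756, without wild-type LPS replicates 940 and 769, and without Tpl2-deficient LPS replicates 2565 and 2489. The cause was not tested. With the replicate number as a block 7509 genes changed and 1454 differences passed. With the numbers of the LPS-treated Tpl2-deficient arrays crossed, an alternative chosen after seeing the data, the counts were 7573 and 1454. Changes that did not pass also changed sign: Cebpd was 0.046 and Slc39a14 0.028 when all probe sets of a gene were averaged, and Il4ra 0.0028 with repeated quantile normalization. Leaving out 1 array gave Cebpd changes from -0.18 to 0.072 and Slc39a14 changes from -0.31 to 0.0088. The fit restricted to the 4 Tpl2-deficient arrays gave no difference of responses. Signal near the array median limits the folds of genes silent at rest.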
